A study of Mus musculus with 9 samples.

Results

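The 10 genes described here are active mainly in the epithelium of the stomach, and their levels were followed in organoids grown from the small intestine of the mouse. They are the trefoil factor genes *Tff1* and *Tff2*, the gastrokine genes *Gkn1*, *Gkn2* and *Gkn3*, and *Anxa10*, *Cldn18*, *Ctse*, *Psca* and *Vsig1*. They were matched by symbol to 10 of the 54838 Ensembl genes with a value, and were chosen from measured values, because several of them were high in the libraries labelled 4-OHT DMSO. The levels in those libraries and their difference from EtOH DMSO are therefore given as a description, with no test.

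The organoids came from *Vil-CreERT2*;*Mettl3* fl/fl mice on a C57BL/6 background, aged 2 to 4 months. *Mettl3* encodes the catalytic subunit of the complex that writes N6-methyladenosine (m6A) onto mRNA. All 4 groups share this genotype, in which the *Villin* promoter drives a Cre recombinase that is active in intestinal epithelium once 4-hydroxytamoxifen (4-OHT) is present. Organoids received 500 nM 4-OHT, or its solvent ethanol (EtOH), over 2 days. They were cultured with necrostatin-1 (Nec-1), which inhibits the kinase RIPK1, or with its solvent DMSO, over 5 days. Of the 7 bulk RNA-seq libraries, 4-OHT Nec-1 has 1 and each of the groups 4-OHT DMSO, EtOH DMSO and EtOH Nec-1 has 2. No group lacked the Cre or the floxed alleles, so loss of *Mettl3* cannot be told apart from exposure to 4-OHT and active Cre. No source used here says that the libraries of a group came from separate cultures, so the p-values measure only the spread between these libraries.

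The stomach lining is covered by surface mucous cells, which secrete mucins together with the trefoil peptide TFF1 and the gastrokines GKN1 and GKN2. Mucous neck cells, deeper in the gland, secrete TFF2 and, in the mouse, GKN3. Cathepsin E (*Ctse*) is an aspartic protease of gastric surface cells, claudin 18 (*Cldn18*) seals the tight junctions of the gastric epithelium, annexin A10 (*Anxa10*) is a calcium-dependent phospholipid-binding protein, *Psca* encodes a surface protein of the Ly6 family held by a lipid anchor, and *Vsig1* encodes a junctional adhesion protein of the immunoglobulin superfamily. Healthy small intestine carries little of these transcripts and uses the third trefoil peptide, TFF3, from its goblet cells.

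The members include neighbours on a chromosome. On GRCm38.p6, *Tff2* (chr17:31141062-31144282) and *Tff1* (chr17:31161395-31165060) lie beside *Tff3* in a stretch of 39.8 kb. *Gkn1* (chr6:87345653-87350915), *Gkn2* (chr6:87373365-87379494) and *Gkn3* (chr6:87383319-87388935) lie within 43.3 kb. Promoter sequences from RefSeq were found for 6 of the 10 members, and not for *Tff1*, *Tff2*, *Ctse* and *Psca*. Those of the 3 adjacent gastrokine genes are shown because their transcripts went different ways in the same libraries, and that of *Anxa10* because its 4-OHT DMSO libraries lay closest together among the members high in both. Each runs 5′ to 3′ on the gene's own strand over the 250 bases before the annotated start: chr6:87350916-87351165 on the minus strand for *Gkn1*, chr6:87373115-87373364 on the plus strand for *Gkn2*, chr6:87388936-87389185 on the minus strand for *Gkn3* and chr8:62123194-62123443 on the minus strand for *Anxa10*. Capitals mark matches to 4 motifs that were searched on both strands, namely the TATA box with the letters TATAAA, the site of GATA factors with AGATAA, that of AP-1 with TGACTCA (its other strand reads TGAGTCA) and the core of the interferon-stimulated response element.
Gkn1: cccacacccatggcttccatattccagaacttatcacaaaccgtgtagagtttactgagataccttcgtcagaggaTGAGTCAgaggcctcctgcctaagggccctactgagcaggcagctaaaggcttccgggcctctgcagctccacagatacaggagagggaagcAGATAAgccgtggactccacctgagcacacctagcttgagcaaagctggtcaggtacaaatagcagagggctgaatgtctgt
Gkn2: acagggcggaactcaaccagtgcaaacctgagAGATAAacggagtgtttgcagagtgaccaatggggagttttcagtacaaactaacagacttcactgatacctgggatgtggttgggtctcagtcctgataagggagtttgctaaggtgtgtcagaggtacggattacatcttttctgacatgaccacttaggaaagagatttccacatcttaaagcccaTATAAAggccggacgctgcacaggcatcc
Gkn3: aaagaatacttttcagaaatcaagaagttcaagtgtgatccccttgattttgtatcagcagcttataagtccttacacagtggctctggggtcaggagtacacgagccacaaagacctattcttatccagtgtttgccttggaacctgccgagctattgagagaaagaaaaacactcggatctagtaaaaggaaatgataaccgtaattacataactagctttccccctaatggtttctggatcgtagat
Anxa10: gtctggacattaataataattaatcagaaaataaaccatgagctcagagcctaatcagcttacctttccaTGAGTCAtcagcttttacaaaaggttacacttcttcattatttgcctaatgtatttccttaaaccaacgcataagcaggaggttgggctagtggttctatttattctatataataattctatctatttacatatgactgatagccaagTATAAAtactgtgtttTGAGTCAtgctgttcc

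The *Gkn1* promoter held an AP-1 match at -174 and a GATA match at -82, counted from the last base before the start as -1. *Gkn2* held a GATA match at -218 and a TATA box at -29. *Gkn3* held no match to any of the 4 motifs, and neither did *Vsig1*. *Anxa10* held AP-1 matches at -180 and -16 and a TATA box at -32. Of the annotated *Cldn18* starts, the outer one held GATA matches at -146 and -131 and the inner one held none. No matches overlapped. Over 32851 promoters of the same length, 12.4% held TATAAA, 9.99% AGATAA, 4.46% TGACTCA and 2.98% the interferon-stimulated core. The motifs were picked after the expression values were known, and a match describes letters, not a bound factor.

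Values are FPKM, the fragments of a transcript divided by its length and by the depth of the library, and differences are on log2(FPKM + 1). The libraries summed to 450207 to 498712 FPKM and listed 11559 to 12038 genes at 1 FPKM or more, with relative depths of 0.853 to 1.04 read from the spacing of their lowest values. The second 4-OHT DMSO library stood apart. In it, 228 genes lay at least 1 log2 unit above all 6 other libraries, of which 164 were pseudogenes and 15 were protein-coding, 5 of the latter being members, whereas each other library had 3 to 24 such genes. The SD of the difference between the 4-OHT DMSO libraries was 1.13 over pseudogenes, against 0.361 and 0.362 in the EtOH groups, and 0.290 over protein-coding genes, against 0.267 and 0.232. What part this has in the members' values was not tested. *Mettl3* itself had 2.70 and 2.71 FPKM with EtOH DMSO, 2.41 and 2.47 with EtOH Nec-1, 3.72 and 4.14 in the libraries labelled 4-OHT DMSO and 3.36 in the library labelled 4-OHT Nec-1. It was thus not lower where 4-OHT was given. A value over the whole gene does not read the excised part, so every direction between 4-OHT and EtOH below rests on the labels.

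Markers of the small intestinal epithelium were measured in all groups. Of 9 listed, 4 rose and 3 fell with 4-OHT DMSO against EtOH DMSO by limma, beside 24.5% higher and 16.7% lower over all genes tested. *Epcam*, the adhesion molecule of epithelial cells, had 431 to 609 FPKM over the 7 libraries. *Lgr5*, the marker of intestinal stem cells, had 1.26 and 1.52 FPKM with EtOH DMSO and 0.408 to 0.565 in the 3 libraries with 4-OHT. It fell together with the enterocyte genes *Sis* and *Alpi* (*Lgr5* limma adjusted p = 0.0128 with 4-OHT DMSO). The 4 that rose with 4-OHT DMSO were *Lyz1*, *Muc2*, *Chga* and *Vil1*. *Lyz1* went from 852 and 783 FPKM with EtOH DMSO to 1639 and 1595. *Muc2* went from 17.6 and 20.2 to 44.9 and 43.2, and *Chga* from 18.0 and 19.4 to 38.2 and 49.6. Without either EtOH DMSO library, or with 1 FPKM required in every library, *Lgr5* did not enter the test. None of the 5 fibroblast markers reached 1 FPKM in any library, with a summed level of 0.00588 to 0.137 FPKM.

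Without 4-OHT the gastric genes were low. With EtOH, 2 of the 10 reached 1 FPKM in any of the 4 libraries, and *Anxa10* alone reached it in each. *Anxa10* had 4.77 and 6.18 FPKM with EtOH DMSO and 4.79 and 3.60 with EtOH Nec-1. *Gkn3* had 3.09 and 1.98 FPKM with EtOH DMSO and 0.842 and 0.637 with EtOH Nec-1. *Tff1*, *Tff2* and *Psca* stayed between 0.125 and 0.993 FPKM in the EtOH libraries, and *Gkn1*, *Gkn2*, *Cldn18*, *Ctse* and *Vsig1* below 0.3.

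**Figure D1:**
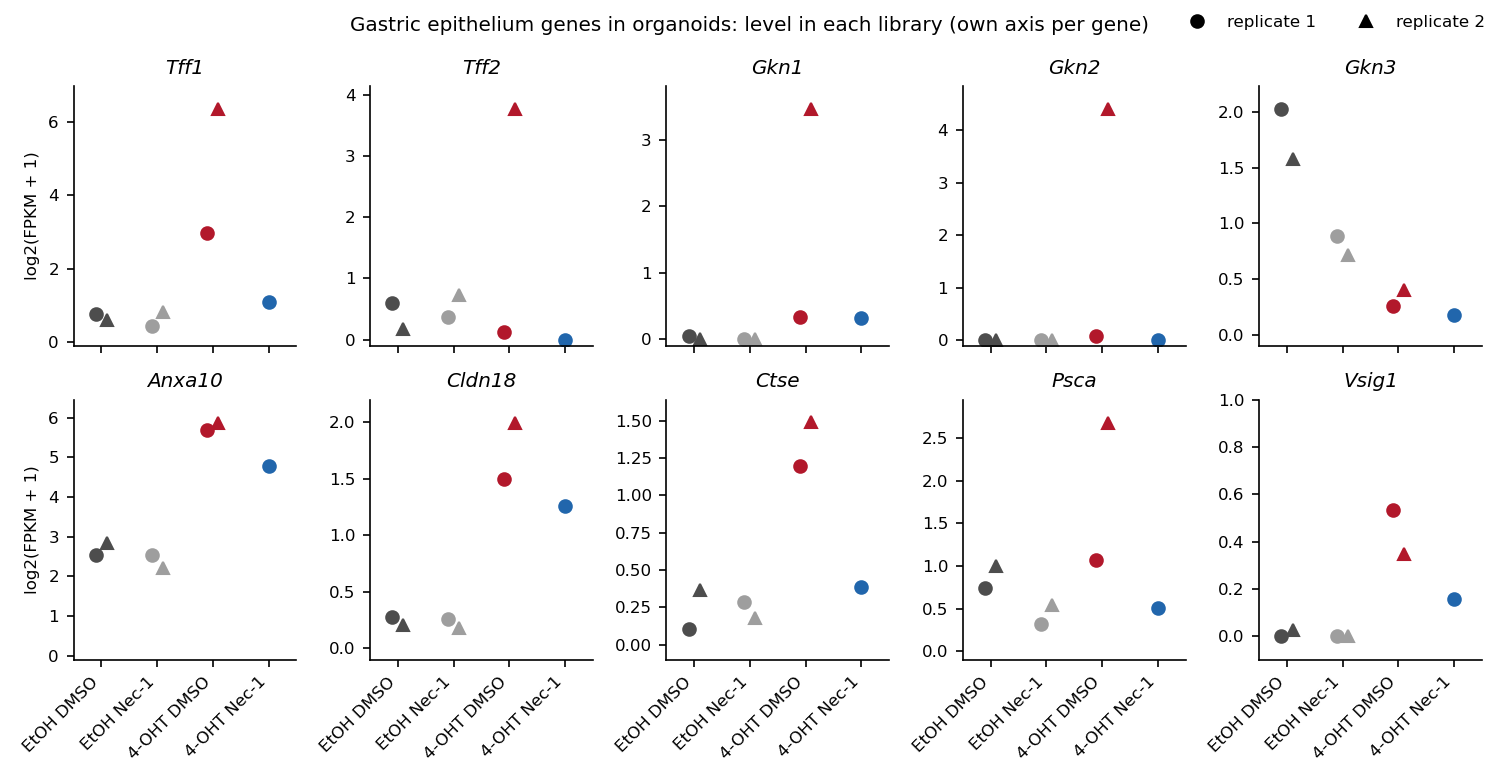
Level of each of the 10 gastric epithelium genes, as log2(FPKM + 1) on an axis of its own, in the 7 libraries arranged by group, with 1 point per library, circles for replicate 1 and triangles for replicate 2. *Anxa10*, *Cldn18* and *Ctse* have both 4-OHT DMSO points above all EtOH points, *Tff2*, *Gkn1* and *Gkn2* have the second 4-OHT DMSO point alone far above the rest, and *Gkn3* is highest with EtOH DMSO.

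Against EtOH DMSO, 4-OHT DMSO libraries split the genes into those high in both libraries and those high in the second alone, where high means at least 1 log2 unit above the higher EtOH DMSO library. *Tff1*, *Anxa10* and *Cldn18* were high in both, 3 of 10 members, where 4.66% of the 12702 genes tested were. *Tff2*, *Gkn1*, *Gkn2*, *Ctse* and *Psca* were high in the second only, 5 of 10 members, where 2.74% of the genes tested and 1.26% of the protein-coding ones were. *Tff2*, *Gkn1*, *Gkn2* and *Vsig1* were not among the genes tested, so these and the later shares over genes tested do not include them. *Gkn3* and *Vsig1* were high in neither, and no member was high in the first alone. These counts hold the values that chose the genes, and nothing is read from them.

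*Anxa10* had the closest 4-OHT DMSO libraries of the 3 members high in both. It had 50.7 and 57.1 FPKM there, a mean of 53.9 ± 4.56 (SD, n = 2) against 5.47 ± 0.999 (SD, n = 2) with EtOH DMSO. The libraries stood 2.85 and 3.02 log2 units above the higher EtOH DMSO library. With or without the second library, the groups did not overlap.

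*Cldn18* showed the same order at a lower level. It had 1.83 and 3.00 FPKM in the 4-OHT DMSO libraries, 0.214 and 0.151 with EtOH DMSO, and rises of 1.22 and 1.72. *Ctse* had 1.298 and 1.81 FPKM against 0.0774 and 0.291, and rises of 0.83 and 1.12. The first of these lies just under the line of 1 log2 unit and the second just over it, so that *Ctse*, counted with the genes high in the second library only, had both 4-OHT DMSO libraries above all 4 EtOH libraries.

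*Vsig1* also lay above every EtOH library in both, at 0.449 and 0.271 FPKM against 0 and 0.0170 with EtOH DMSO, but never reached 1 FPKM. It was the one member with a higher value in the first than in the second 4-OHT DMSO library.

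*Tff1* was high in both libraries and far higher in the second. It had 6.85 FPKM in the first and 80.6 in the second, 11.8 times as much, against 0.712 and 0.505 with EtOH DMSO. Without the second library its rise was 2.20 log2 units, and in the second it was 5.57.

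*Tff2*, *Gkn1* and *Gkn2* were high in the second library alone. *Tff2* had 0.0924 FPKM in the first 4-OHT DMSO library, below both EtOH DMSO libraries at 0.516 and 0.125, and 12.6 in the second. *Gkn1* had 0.252 and 10.04 FPKM, against 0.0345 and 0 with EtOH DMSO. *Gkn2*, which was listed at 0 in all 4 EtOH libraries, had 0.0666 and 20.2 FPKM. In the first library these 3 genes were thus under 0.3 FPKM, and for *Tff2* the groups overlapped.

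*Psca* lay between these patterns. It had 1.11 and 5.42 FPKM in the 4-OHT DMSO libraries, 4.90 times as much in the second, against 0.672 and 0.993 with EtOH DMSO. Its rise in the first library was 0.080 log2 units.

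*Gkn3* went the other way from its neighbours. It had 0.192 and 0.324 FPKM in the 4-OHT DMSO libraries, levels that were -1.78 and -1.63 log2 units from the higher EtOH DMSO library. Both 4-OHT DMSO libraries were below all 4 EtOH libraries. The second library, in which *Gkn1* and *Gkn2* were at their highest, had a *Gkn3* level only 0.15 log2 units above that of the first.

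**Figure D2:**
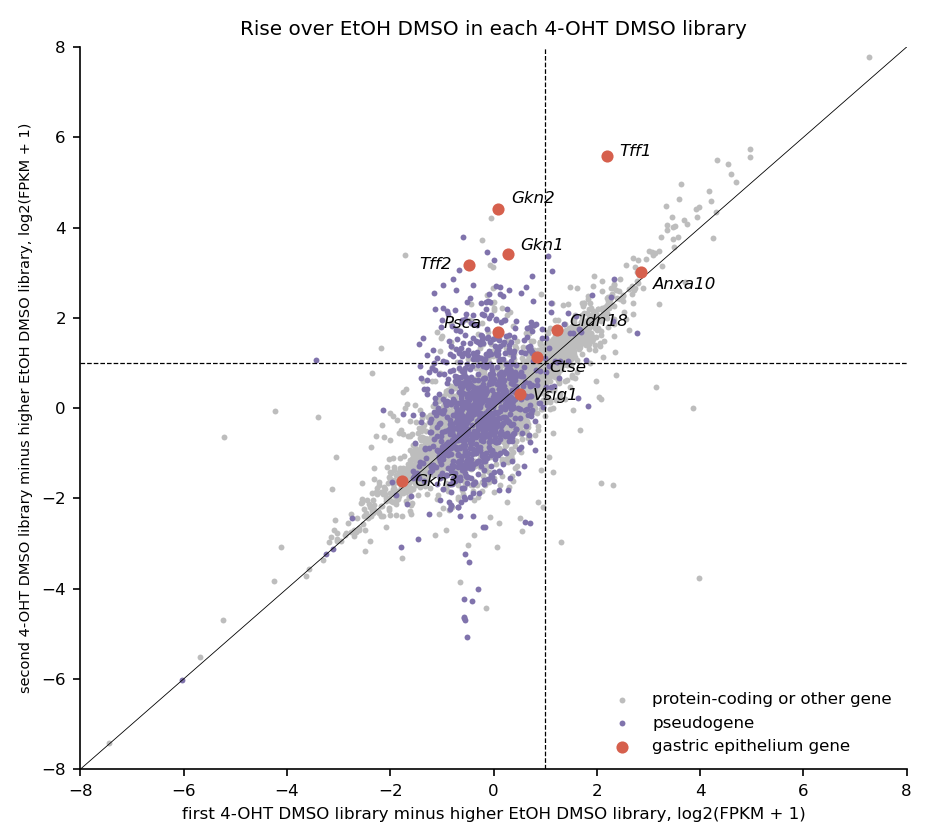
Difference of the first (horizontal) and second (vertical) 4-OHT DMSO library from the higher EtOH DMSO library, in log2(FPKM + 1), for the 12702 genes tested and the members below the filter, with pseudogenes in purple, other genes in grey and the gastric epithelium genes in red. Dashed lines mark 1 log2 unit and the solid line marks equal rises, near which *Anxa10* and *Gkn3* lie, while *Tff1*, *Tff2*, *Gkn1*, *Gkn2* and *Psca* lie above it among pseudogenes and few other genes.

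Genes for 4 of the secreted peptides were among the 10 that stood out most in the second library. By the gap between the second 4-OHT DMSO library and the highest of the 6 other libraries, *Gkn2* (4.31 log2 units) ranked 2, *Tff1* (3.38) ranked 5, *Gkn1* (3.14) ranked 7 and *Tff2* (3.04) ranked 10 among all genes. The other 6 of the top 10 were *Gm24865*, *Gm11878*, *Gm4149*, *Gm13341*, *Gm4609* and *Gm5045*, of which *Gm11878*, *Gm4149* and *Gm4609* are annotated as pseudogenes. Among protein-coding genes alone, *Gkn2*, *Tff1*, *Gkn1* and *Tff2* held ranks 1 to 4, and *Psca*, with a gap of 1.61, held rank 6. The choice of the members used this library, so the ranks repeat part of that choice and nothing is read from them. *Cldn18*, *Ctse* and *Anxa10* had gaps of 0.50, 0.29 and 0.17 log2 units.

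The genes beside them on the chromosome were read as well. In the trefoil cluster *Tff3*, the goblet cell peptide, had 1043 and 945 FPKM with EtOH DMSO and 1211 and 1354 with 4-OHT DMSO (0.37 ± 0.11 log2 units, SE, adjusted p = 0.0413 by limma), with no gap between the 4-OHT DMSO libraries like that of *Tff1* or *Tff2*. The nearest 3 protein-coding genes on either side (*Glp1r*, *Umodl1*, *Abcg1*, *Tmprss3*, *Ubash3a* and *Rsph1*) stayed under 1 FPKM in every library. Beside the gastrokines, *Gfpt1*, an enzyme of hexosamine synthesis, had 45.2 and 48.3 FPKM with 4-OHT DMSO and 49.6 and 61.7 with EtOH DMSO, a difference of -0.24 ± 0.12 (SE, adjusted p = 0.161 by limma). *D6Ertd527e*, *Antxr1*, *Bmp10*, *Arhgap25* and *Prokr1* stayed under 0.35 FPKM.

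Over the 7 libraries, and with no test because the libraries share groups and the 2 4-OHT DMSO libraries set the range, the 5 genes whose log2(FPKM + 1) followed *Tff1* most closely among the 12702 were *Gm6161* (Pearson r = 0.992), *Gm13822* (0.990), *Gm8991* (0.988), *Gm7446* (0.986) and *Gm7180* (0.985), 4 pseudogenes and a long noncoding RNA. *Gm6161*, for example, had 46.9 and 97.1 FPKM in the 4-OHT DMSO libraries and 23.8 to 30.9 in the others. The 5 genes that followed *Anxa10* were protein-coding, *Taf11* (r = 0.999), *Klf6* (0.999), *Naif1* (0.999), *Ddx24* (0.998) and *Dnajb1* (0.998). *Klf6*, a zinc finger transcription factor, had 80.3 and 82.9 FPKM with 4-OHT DMSO, 57.6 with 4-OHT Nec-1 and 21.6 to 26.4 with EtOH.

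The libraries with Nec-1 were not used to choose the genes, and comparing 4-OHT with EtOH among them gives values that the choice did not rest on. Of the 6 members that passed the filter of 1 FPKM in 2 libraries (*Tff1*, *Gkn3*, *Anxa10*, *Cldn18*, *Ctse* and *Psca*), *Anxa10* and *Cldn18* were higher with 4-OHT Nec-1 than with EtOH Nec-1 by limma, and none was lower. Over all genes tested 13.9% were higher and 7.16% lower, and nothing is drawn from the count of 2, because 4 of the 6 members entered the test only through libraries with 4-OHT. The single 4-OHT Nec-1 library was assumed to vary like the other groups. At an unadjusted p under 0.05 there were 3 members and 4767 genes. The other 2, *Gkn3* and *Anxa10*, would have passed the filter through the EtOH libraries alone, and 4 would have passed it without the second 4-OHT DMSO library.

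*Anxa10* had 26.5 FPKM with 4-OHT Nec-1 against 4.79 and 3.60 with EtOH Nec-1. The difference was 2.41 ± 0.20 log2 units (SE, limma adjusted p = 0.0041). It holds no 4-OHT DMSO value, so leaving out the second 4-OHT DMSO library could not move it. Without the first or the second EtOH Nec-1 library, the difference was 2.58 and 2.25 log2 units. *Anxa10* was the 1 member of 10 at least 1 log2 unit above each EtOH Nec-1 library, where 4.09% of the genes tested were.

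*Cldn18* had 1.39 FPKM with 4-OHT Nec-1 against 0.198 and 0.136 with EtOH Nec-1, a difference of 1.03 ± 0.24 log2 units (SE, limma adjusted p = 0.0349). It stayed below 1 FPKM in all 4 EtOH libraries and entered the test only through the 3 libraries with 4-OHT. The filter was thus met on the 4-OHT side alone, and, unlike for *Anxa10*, nothing is read from the call. Without the second 4-OHT DMSO library it would pass the filter only with the help of the 4-OHT Nec-1 library itself, and that value is not given. The call was lost, with adjusted p of 0.0532 to 0.133, when the libraries were centred on their medians, when no filter was used, with the replicate number as a block, and when any one of the EtOH DMSO or EtOH Nec-1 libraries was left out.

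*Tff1* had 1.12 FPKM with 4-OHT Nec-1 against 0.362 and 0.763, a difference of 0.45 ± 1.26 (SE, limma adjusted p = 0.826). The spread estimate behind this error includes the 4-OHT DMSO libraries at 6.85 and 80.6 FPKM. *Ctse* (0.305 FPKM against 0.221 and 0.130, adjusted p = 0.645) and *Psca* (0.426 against 0.242 and 0.450, adjusted p = 0.937) did not pass the test either. *Gkn3* had 0.126 FPKM against 0.842 and 0.637, a difference of -0.62 ± 0.24 log2 units (SE, limma adjusted p = 0.118). It lay below both EtOH Nec-1 libraries, in the same order as with DMSO.

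The 4 members below the filter have levels only. *Gkn1* had 0.244 FPKM with 4-OHT Nec-1 and was listed at 0 in both EtOH Nec-1 libraries, *Vsig1* had 0.116 against 0 and 0, *Gkn2* was listed at 0 in all 3, and *Tff2* was listed at 0 with 4-OHT Nec-1 against 0.288 and 0.660.

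**Figure D3:**
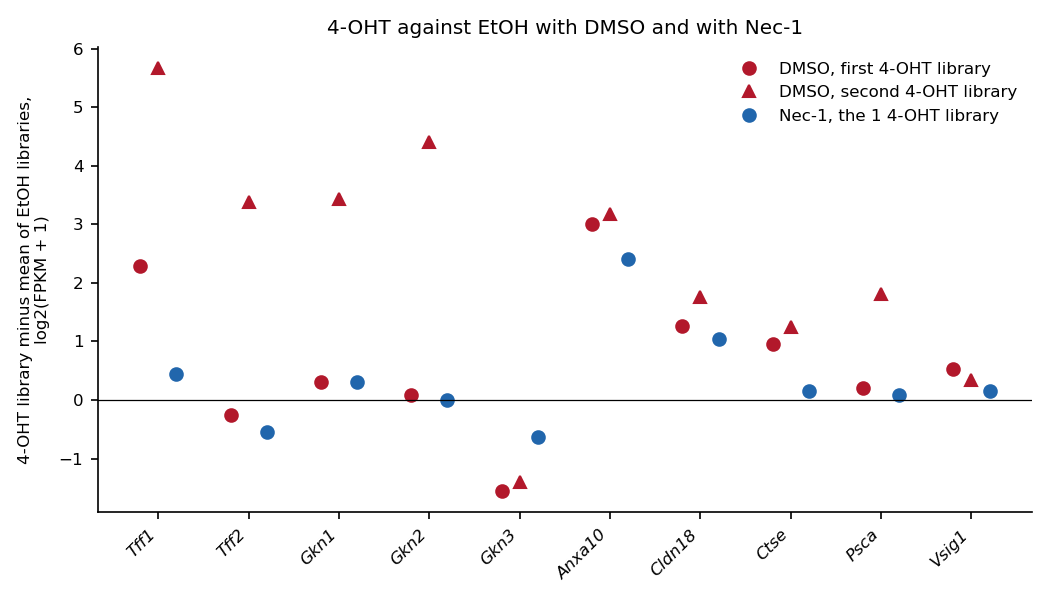
Difference of each 4-OHT library from the mean of the EtOH libraries with the same inhibitor or solvent, in log2(FPKM + 1), for the 10 members, with red for DMSO (circle for the first and triangle for the second library) and blue for the 1 library with Nec-1. *Anxa10* stands at 3.01 and 3.18 with DMSO and 2.41 with Nec-1, *Cldn18* at 1.26, 1.76 and 1.03, and *Gkn3* below 0 throughout.

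Within 4-OHT organoids, the Nec-1 library was set beside the DMSO libraries without a test, because it is 1 library and the DMSO libraries chose the genes. All 10 members were lower with 4-OHT Nec-1 than in each 4-OHT DMSO library, where 49.3% of the genes tested were. *Tff2*, *Gkn1*, *Gkn2* and *Vsig1* lay below the filter and are not among those genes. For *Gkn2*, *Tff2*, *Gkn1*, *Gkn3* and *Vsig1* the difference from the first library was -0.38 to -0.010 log2 units. *Tff1* alone was at least 1 log2 unit below each, with differences of -1.89 from the first and -5.27 from the second, where 1.15% of the genes tested were. The differences from the first and second library were -0.91 and -1.08 for *Anxa10*, -0.82 and -1.11 for *Ctse*, -0.56 and -2.17 for *Psca*, and -0.24 and -0.74 for *Cldn18*. When the first 4-OHT DMSO library is left out, 7 members lie at least 1 log2 unit below the second. That library stood apart, and its values were part of the choice of the members. No share over all genes was read for this count, and nothing is drawn from it.

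Nec-1 in organoids without 4-OHT was compared with EtOH DMSO, a group that was also part of the choice of the genes. None of the 6 members tested passed (0 higher and 0 lower by limma, with 1 at an unadjusted p under 0.05), where 0.173% of all genes were higher and 0.0472% lower and 1689 had an unadjusted p under 0.05. Only *Gkn3* and *Anxa10* would have passed the filter through the EtOH libraries alone. The others entered through libraries with 4-OHT, so nothing is read from the count of 0. *Gkn3* fell short of the threshold at -1.01 ± 0.19 log2 units (SE, limma adjusted p = 0.168), with both EtOH Nec-1 libraries, at 0.842 and 0.637 FPKM, below both EtOH DMSO libraries, at 3.09 and 1.98. *Anxa10* differed by -0.32 ± 0.16 (SE, adjusted p = 0.466). *Gkn3* and *Psca* were the 2 of 10 members with each EtOH Nec-1 below each EtOH DMSO library, where 39.1% of the genes tested were. *Psca* had 0.242 and 0.450 FPKM with EtOH Nec-1.

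Genes of the stomach outside the 10 members were read beside them. The members were chosen because several were high with 4-OHT DMSO. A contrast between them and this list repeats part of that choice, and nothing is read from it. Of 31 listed markers of gastric mucous, chief, parietal and endocrine cells and gastric transcription factors, all were matched, 8 were at 0 in every library and 21 stayed under 1 FPKM in every library. The 8 at 0 were *Lipf*, *Chia1*, *Atp4b*, *Kcne2*, *Slc26a7*, *Cckbr*, *Hrh2* and *Barx1*, which include the proton pump subunit of parietal cells (*Atp4b*) and the gastric lipase of chief cells (*Lipf*). Of the 8 tested, 2 rose and 3 fell with 4-OHT DMSO against EtOH DMSO, with a median difference of 0.26 log2 units beside 0.077 over all genes, of which 24.5% were higher and 16.7% lower. Of the 31, 7 reached 1 FPKM in each EtOH library and so belong to these organoids too.

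The secreted mucins *Muc5ac* and *Muc6* were near 0. *Muc5ac*, the mucin that surface mucous cells secrete with TFF1, was listed at 0 in 6 libraries and at 0.0642 FPKM in the second 4-OHT DMSO library, and *Muc6*, the mucin of neck cells, stayed at 0.0988 FPKM or less. *Mucl3* had 1.52 FPKM in that library, 0.0621 in the first and at most 0.289 elsewhere. *Muc1* had 0.185 and 0.467 FPKM in the 4-OHT DMSO libraries, 0.0250 in the first EtOH Nec-1 library and 0 elsewhere. Of the 31 genes 8 were highest in the second 4-OHT DMSO library, and 0 of them by 1 log2 unit or more. On log2(FPKM + 1) such gaps shrink for low genes like *Mucl3*. No share over all genes was read beside these counts, and nothing is drawn from them.

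*Sst*, the somatostatin of endocrine D cells, rose from 28.8 in both EtOH DMSO libraries to 54.9 and 81.4 FPKM with 4-OHT DMSO (1.19 ± 0.18 log2 units, SE, adjusted p = 0.0060 by limma). *Bhlha15*, a transcription factor of secretory cells, rose from 1.55 and 1.59 to 2.68 and 2.42 (0.47, adjusted p = 0.0222), but that call was lost under 7 of the 13 alternatives, namely centring, no filter and leaving out the first 4-OHT DMSO or any one EtOH library. *Sult1c2*, a sulfotransferase, fell from 27.6 and 22.0 to 6.08 and 9.71 FPKM (-1.56 ± 0.23, SE, adjusted p = 0.0048). *Pdx1*, a transcription factor of the antrum and duodenum, fell from 6.78 and 5.15 to 1.55 and 2.49 (-1.21, adjusted p = 0.0164), a call that was lost without the first EtOH DMSO library and with no filter. *Kcnq1*, a potassium channel, fell from 20.3 and 22.8 to 14.3 and 14.7 (-0.54, adjusted p = 0.0068). *Sox2*, which specifies foregut epithelium, had 0.073 and 0.0203 FPKM with EtOH DMSO. It was listed at 0 in all other libraries, with EtOH Nec-1 as with 4-OHT, and no fall is read from it. *Nkx6-3* had 0.569 and 0.630 FPKM with EtOH DMSO and 1.589 and 1.496 with 4-OHT DMSO. Its difference of 0.67 log2 units did not pass (limma adjusted p = 0.0548), but did without the trend and among protein-coding genes alone. *Sox21*, below the filter, had 0.132 and 0.154 FPKM with EtOH DMSO and 1.158 and 0.563 with 4-OHT DMSO. With Nec-1, *Foxq1* was higher (0.76 log2 units, adjusted p = 0.0152) and *Sult1c2* lower (10.6 FPKM against 25.5 and 29.7, adjusted p = 0.0283) with 4-OHT than with EtOH, and none of the other 6 passed. The *Sult1c2* call with Nec-1 was lost under 6 of 13 alternatives (the replicate block, no filter and any one EtOH library left out), and that of *Foxq1* without either EtOH Nec-1 library.

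**Figure D4:**
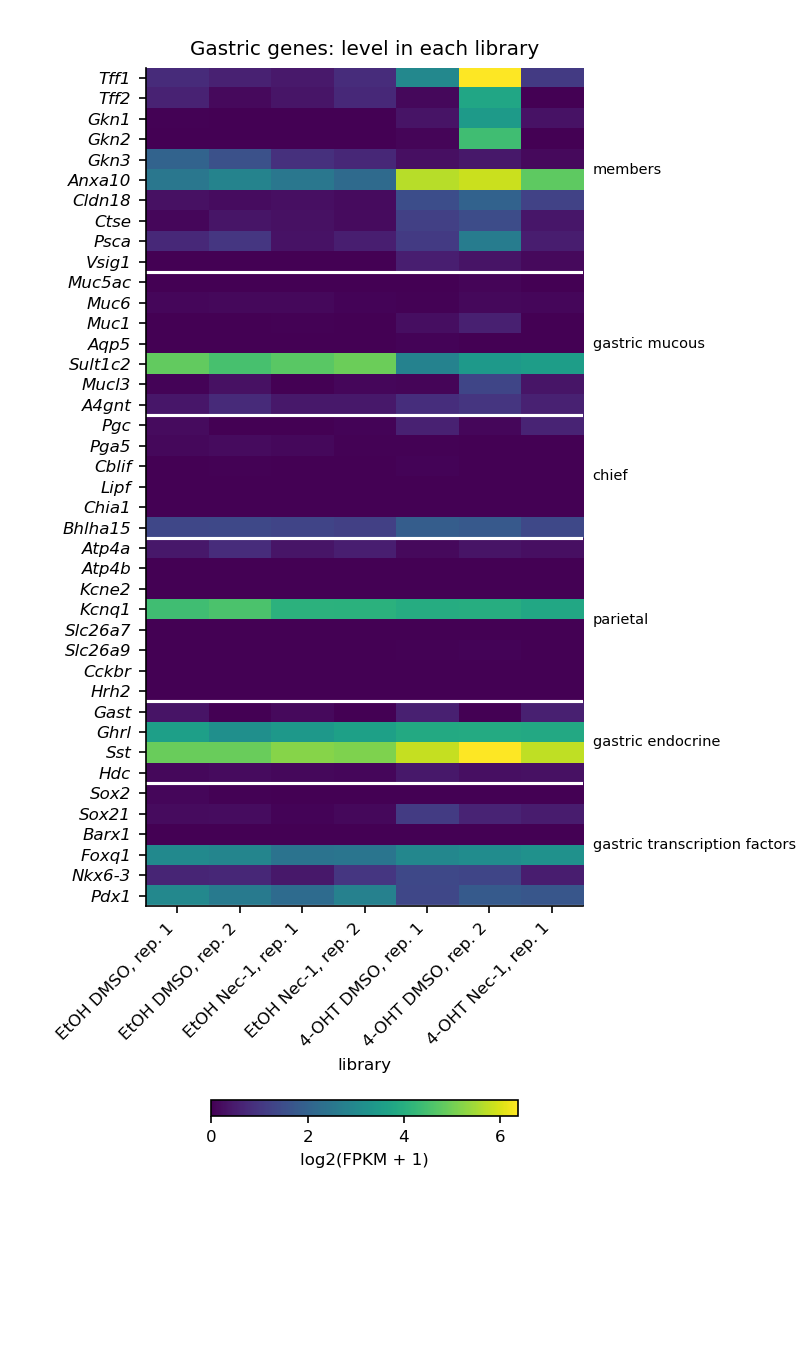
Level, as log2(FPKM + 1) on a colour scale from 0 (dark) upward, of the 10 members and the 31 other listed gastric genes in the 7 libraries, grouped by list. *Tff1* and *Anxa10* brighten in the 4-OHT DMSO columns, *Sst*, *Kcnq1*, *Ghrl*, *Foxq1* and *Sult1c2* are present in all columns, and most parietal and chief cell genes are at 0.

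Intestinal identity genes moved in both directions. Of 11, 2 rose and 4 fell with 4-OHT DMSO, with a median of -0.22 log2 units. Once each library is centred on its median, which moves the median of all genes from 0.077 to -0.080 and the calls over all genes from 3117 higher and 2120 lower to 2213 higher and 3187 lower, 1 of the 11 rose and 8 fell, while with no filter 2 rose and 2 fell. *Sis*, the brush border sucrase-isomaltase, fell from 279 and 305 FPKM to 106 and 118 (-1.37 ± 0.10, SE, limma adjusted p = 0.0007), and *Alpi*, the brush border phosphatase, fell by 1.53 (adjusted p = 0.0018). *Vil1* rose by 0.51 (adjusted p = 0.0119). *Cdx2*, the transcription factor that sets intestinal against gastric fate, had 132 and 137 FPKM with EtOH DMSO and 111 and 120 with 4-OHT DMSO, a difference of -0.22 (adjusted p = 0.078) that did not pass, although it did under the centring.

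Relatives of the members in the same gene families gave a further comparison. They were listed with earlier results of these data known, so their counts are a description and nothing is read from them. Of 18 tested, 12 were higher and 2 lower with 4-OHT DMSO, with a median of 0.60 log2 units, beside 24.5% higher, 16.7% lower and a median of 0.077 over all genes tested. With the libraries centred 11 were higher and 2 lower, *Tff3* being the 1 lost, and without the second 4-OHT DMSO library 11 were higher and 1 lower. The *Tff3* call was lost under 8 of 13 alternatives in all. With Nec-1, 8 were higher and 1 lower with 4-OHT than with EtOH, beside 13.9% and 7.16% of all genes tested. Leaving out the first or the second EtOH Nec-1 library gave 5 and 6 higher and 0 lower, and centring gave 8 higher and 3 lower.

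Among annexins, *Anxa1*, *Anxa2*, *Anxa3*, *Anxa4* and *Anxa5* rose, beside *Anxa10*, which was high in both libraries. *Anxa1*, an annexin with anti-inflammatory roles, went from 4.72 and 5.76 FPKM to 42.7 and 32.9 with 4-OHT DMSO (2.63 ± 0.16 log2 units, SE, limma adjusted p = 0.0005) and had 15.6 with 4-OHT Nec-1. *Anxa13*, an annexin of the intestinal epithelium, had 365 and 345 FPKM with EtOH DMSO and 357 and 374 with 4-OHT DMSO, a difference of 0.04 (adjusted p = 0.699).

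Of the claudins, *Cldn4* had 80.4 and 95.9 FPKM with EtOH DMSO and 508 and 521 with 4-OHT DMSO, and rose by 2.54 ± 0.11 log2 units (SE, adjusted p = 0.0003 by limma), while *Cldn3* rose by 1.58 (adjusted p = 0.0004). *Cldn2* rose by 0.40 (adjusted p = 0.0126), and *Cldn15*, which forms sodium pores in the small intestine, fell by 1.15 (adjusted p = 0.0013).

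In the Ly6 family, to which *Psca* belongs, *Ly6a* rose by 4.38 ± 0.31 log2 units (SE, limma adjusted p = 0.0007), *Ly6e* by 3.66 (adjusted p = 0.0014) and *Ly6d* by 1.69 (adjusted p = 0.0013). Unlike *Psca*, *Ly6a* had 418 FPKM in the first and 296 in the second 4-OHT DMSO library, and *Ly6e* had 144 and 213. With 4-OHT Nec-1 *Ly6a* had 135 FPKM and *Ly6e* 23.3, against 12.1 and 8.50 and against 10.1 and 20.2 with EtOH Nec-1, and *Ly6a* alone of the 3 passed that test (adjusted p = 0.0059). A list of regenerative or fetal-like epithelium, chosen with earlier results of these data known, shares *Ly6a* and *Anxa1* with the families. All 9 of its genes tested were higher with 4-OHT DMSO, beside 24.5% of all genes tested, and nothing is read from that count. It was 6 of 9 without the first EtOH DMSO library, 7 of 8 without the first and 8 of 8 without the second 4-OHT DMSO library, and 7 of 10 with no filter. With Nec-1, 6 of 9 were higher, beside 13.9% of all genes tested, and 4 of 9 without the second EtOH Nec-1 library.

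**Figure D5:**
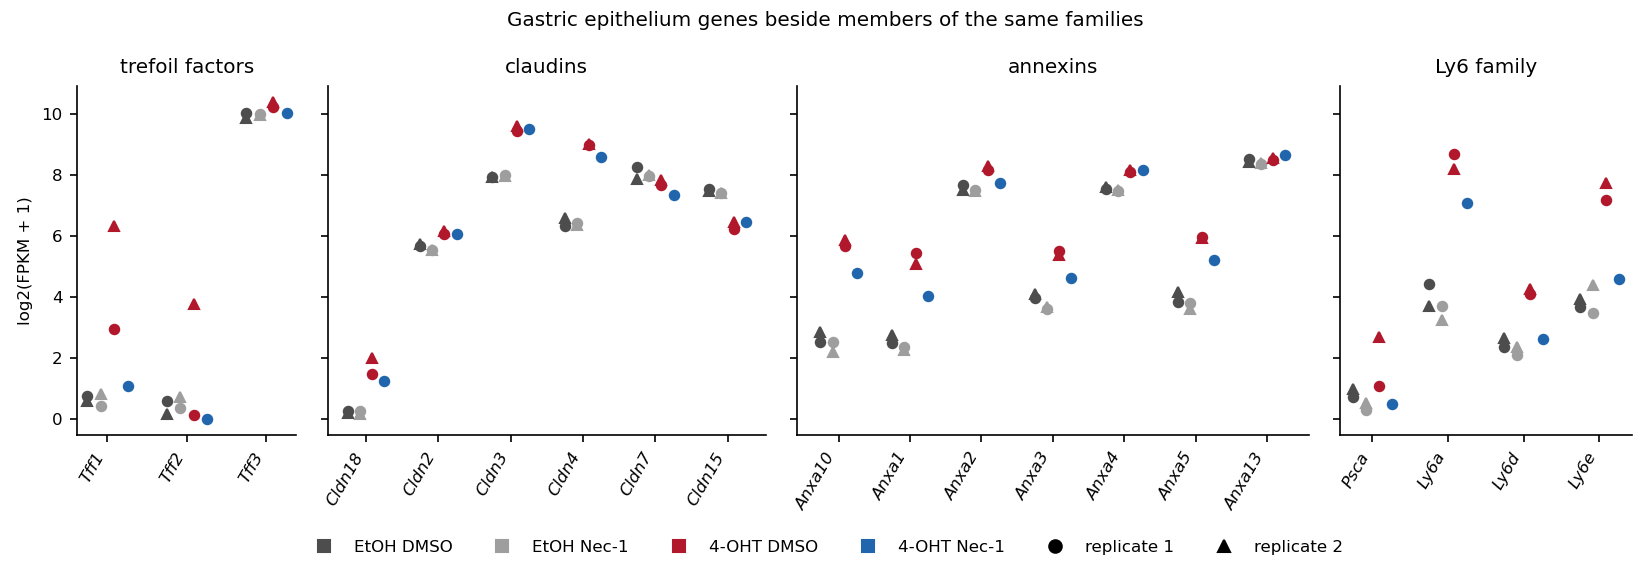
Levels, as log2(FPKM + 1), of *Tff1*, *Tff2*, *Cldn18*, *Anxa10* and *Psca* beside members of the same families, with 1 point per library, colours for the 4 groups, circles for replicate 1 and triangles for replicate 2. *Tff3* lies near 10 in all libraries, *Anxa1*, *Anxa5* and *Anxa10* show the same order of groups, and *Tff1*, *Tff2* and *Psca* have 4-OHT DMSO points that lie far apart.

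In bulk RNA, more cells of a type and more RNA per cell cannot be told apart. Markers of other cell types were read beside these genes. None of the 5 squamous markers was tested or reached 1 FPKM, with summed levels of 0.111 to 1.21 FPKM that were highest in the 4-OHT DMSO libraries, at 1.21 and 0.878. The 4 pancreatic acinar markers summed to 4.36 to 8.74 FPKM, mostly *Cela1*, an elastase, at 3.95 to 7.76, with *Cpa1* and *Pnlip* listed at 0 throughout. *Cela1* had 4.96 and 3.95 FPKM with EtOH DMSO and 7.01 and 7.12 with 4-OHT DMSO (adjusted p = 0.0612 by limma), and passed with the replicate block, among protein-coding genes alone and without either EtOH Nec-1 library. *Ctrb1*, a chymotrypsinogen, was lower with 4-OHT Nec-1 (0.357 FPKM) than with EtOH Nec-1 (2.34 and 1.79, adjusted p = 0.0196). Of 5 immune markers *Itgam*, a myeloid integrin, alone reached 1 FPKM, at 0.315 to 2.45, and did not pass between 4-OHT DMSO and EtOH DMSO (adjusted p = 0.0786), but was lower under centring, among protein-coding genes alone and without the second 4-OHT DMSO library. The part that such cells have in the members' levels was not tested.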

How the data were processed

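Bulk RNA-seq of 7 organoid libraries was used. The authors extracted total RNA, sequenced it on an Illumina HiSeq X instrument and deposited FPKM, 1 value per Ensembl gene and library. The submitters' processing notes name HISAT2 2.1.0, StringTie 1.3.3b and mm10, without roles. Fragment counts are not known, so no counting interval is given. A table of 3 libraries repeats 2 columns of other tables to within rounding. The CUT&Tag samples (2) were not analysed here.

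The 10 members and all gene lists were chosen with earlier results of these data known. Differences in log2(FPKM + 1) were tested by limma 3.58.1 in R 4.3.3 with a mean-variance trend. Genes entered when 2 or more libraries had 1 FPKM or more, which kept 12702. A single fit with a mean for each group took in the 7 libraries, leaving 3 residual degrees of freedom, with Benjamini-Hochberg adjustment over all genes tested and a threshold of 0.05. The pseudocount shrinks the differences of low genes. The fit was tested on simulated data in which only genes of higher level were shifted, between EtOH Nec-1 and EtOH DMSO. No shift was placed in low genes or in the single 4-OHT Nec-1 library, and no library was made to stand apart. The simulation therefore does not bear on calls of those kinds. Tables and plots were made with Python 3.11.15, pandas 2.3.3 and matplotlib 3.10.9. Symbols, coordinates and promoters came from RefSeq tables of GRCm38.p6, the assembly behind mm10, in which *Cblif* was matched through *Gif*.

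Genes named are the 10 members, *Mettl3* and some of the called and of the most abundant genes of each list. Others are the 10 largest gaps of the second 4-OHT DMSO library and the 5 genes most like *Tff1* and *Anxa10*. The 3 neighbours on each side of the clusters are named too. A few list members that were at 0, low or not called were named after their values were seen. Alternatives were no trend, median centring, a pseudocount of 0.1, no filter, 1 FPKM in every library, a replicate block, other folds, each library left out and, added after the data were seen, protein-coding genes only.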

Additional observations from a re-analysis of the deposited data

How the results depend on the processing

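No member passed the comparison of EtOH Nec-1 with EtOH DMSO under any alternative run. Only *Gkn3* and *Anxa10* met the main filter through EtOH libraries alone, so nothing is read from that count. The members called with 4-OHT Nec-1 against EtOH Nec-1 were 2, and 1 (*Anxa10*) under median centring, without a filter, with 1 FPKM in every library and with the replicate block, and 1 to 2 with a library left out. With 1 FPKM required in every library, *Anxa10* was the only member to enter the test. The *Cldn18* adjusted p was 0.0532, 0.0866 and 0.0649 under centring, no filter and the block. *Gkn3* passed there with a pseudocount of 0.1 (-1.88 log2 units, adjusted p = 0.0451). *Psca* changed sign under centring (-0.054) and ranged from -0.024 to 0.20 with a library left out.

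The genes high in both 4-OHT DMSO libraries went from 3 to 6, and those high in the second only from 5 to 3, with a pseudocount of 0.1, which adds *Gkn1*, *Ctse* and *Vsig1* to the former. With 2 log2 units as the line, 3 were high in the second only. *Tff2*, *Gkn2* and *Psca* stayed in the second-only set with the smaller pseudocount. Members lower in 4-OHT Nec-1 than in each 4-OHT DMSO library by the line went from 1 to 3 with that pseudocount, 4 with 0.5 log2 units and 0 with 2, and ranged from 1 to 7 with a library left out. The 7 rest on the second 4-OHT DMSO library alone, and nothing is read from them.

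Over all genes, the 28 calls between EtOH Nec-1 and EtOH DMSO became 8 without a filter and 84 over protein-coding genes, and 9 to 79 with a library left out (79 without either 4-OHT DMSO library). The 2681 calls between 4-OHT Nec-1 and EtOH Nec-1 became 443 to 3079 with a library left out (555 and 443 without the first and second EtOH Nec-1 library), 3238 over protein-coding genes, and 1264 higher and 1492 lower, in place of 1771 and 910, under centring. The listed gastric genes called went from 5 to 3 without a filter. The cause of these shifts was not tested.

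Over genes, the differences of replicate 2 from replicate 1 were not correlated between groups (correlations of -0.040, 0.0065 and -0.012). Each group has only 1 such difference, and the labels do not say, so whether the numbers pair the samples is not known. With the replicate block, the calls between 4-OHT Nec-1 and EtOH Nec-1 were 1617. Levels under about 1 FPKM rest on few fragments, and their number is not known.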
